A study of Mus musculus with 10 samples.

Results

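The collagen genes of the mouse were followed here through 10 RNA-seq libraries of cerebellum and medulloblastoma, a tumour of the cerebellum. Members were all gene symbols of the form Col, number, a, number in the deposited table that reached at least 10 counts in 3 or more libraries. The table held 39769 symbols, of which 44 had such a name and 36 met the count limit. They were described as 9 fibrillar genes (types I, II, III, V and XI), 7 basement membrane genes (types IV, XV and XVIII) and 20 others. The NKP group held 3 libraries labelled medulloblastoma, genotype Nestin-Cre Kmt2dfl/+ Ptch+/-, all taken at 4 months of age. The AKP group held 3 libraries labelled medulloblastoma, genotype AtohI-Cre Kmt2dfl/+ Ptch+/-. AKP 1 and AKP 2 were 2 months old and AKP 3 was 4 months old. The Ptch group, labelled control, held 4 libraries of cerebellum from Ptch+/- mice. The first 2 of these were 4 months old and the last 2 were 2 months old. All mice thus carried the Ptch+/- genotype, and only the NKP and AKP mice carried a Cre driver and 1 floxed copy of Kmt2d, a histone H3 lysine 4 methyltransferase gene. Nestin is expressed in neural stem and progenitor cells and Atoh1 in granule neuron precursors. Which cells lost the Kmt2d copy and which cells made the collagen RNA was not tested. The series was made to ask how losing 1 Kmt2d copy favours tumour formation on this background, and its design sets NKP and AKP tissue against Ptch cerebella. The AKP against NKP comparison was added here.

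Collagens are extracellular proteins in which 3 chains wind into a triple helix. Fibrillar collagens pack into banded fibrils that give tissue its tensile strength, and in the brain they lie mainly in the meninges and around larger vessels. Type IV collagen forms the network of the basement membrane under endothelium and at the surface of the brain, where types XV and XVIII link it to the surrounding matrix. The remaining members include the beaded filaments of type VI, the short-chain type VIII, collagens that bind fibril surfaces (types IX, XII, XIV, XVI, XIX and XX), membrane-spanning types (XIII, XVII, XXIII and XXV) and type XXVII. The last is fibrillar by structure, but is kept here with the others.

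Library totals ran from 12300430 to 19348991 counts. Kmt2d was at 33.2, 46.9 and 58.0 CPM (counts scaled to library size) in NKP 1 to 3, at 34.3, 41.3 and 43.6 CPM in AKP 1 to 3, and at 68.4, 57.3, 56.3 and 52.6 CPM in Ptch 1 to 4. The value of the library labelled NKP 3 fell between those of Ptch 1 and Ptch 4, against its label, although a count over the whole gene can miss the loss of a floxed exon. In 4 of 10 libraries, those labelled NKP 3, AKP 3, Ptch 1 and Ptch 3, RNA of sex-linked genes did not match the stated sex. The summed RNA of 5 cycling genes was 4.25, 3.43 and 33.7 CPM in NKP 1 to 3, 2.88, 153 and 125.5 CPM in AKP 1 to 3, and 241.5, 241.4, 80.4 and 73.6 CPM in Ptch 1 to 4. The lowest cycling sums were thus in 3 libraries labelled medulloblastoma and the highest in a pair labelled cerebellum, and directions below are by label. Markers of granule neuron precursors were present in every library except that Atoh1 was at 0 in some. These 6 genes summed to 971.1 to 987.8 CPM in NKP, 850.5 to 1016 CPM in AKP and 1054 to 1137 CPM in Ptch libraries. Every library labelled medulloblastoma thus lay below every library labelled cerebellum, and the cause was not tested.

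The promoter windows shown are those of Col27a1, the only collagen gene past the threshold in the edgeR fit of all libraries, and of Col20a1, which had the next lowest adjusted p in that comparison among members with a window in the RefSeq table. RefSeq windows were found for 29 of 36 members. Each sequence below gives the 250 bases before the transcript start that the RefSeq table uses for the gene, 5′ to 3′ on the strand of the gene (GRCm38.p6). Both windows lie inside the RefSeq gene bounds, which begin upstream at base 63214009 for Col27a1 and 180983323 for Col20a1, so other transcript starts of these genes are not shown. Capitals mark matches to 5 motifs searched on both strands. They were GGGCGG (the GC box), CCAAT (the CCAAT box), TATAAA (the TATA box), GACCACCCA (the core of GLI sites) and ACAAAG (letters bound by SOX factors).
Col27a1 (chr4:63215162-63215411, plus strand): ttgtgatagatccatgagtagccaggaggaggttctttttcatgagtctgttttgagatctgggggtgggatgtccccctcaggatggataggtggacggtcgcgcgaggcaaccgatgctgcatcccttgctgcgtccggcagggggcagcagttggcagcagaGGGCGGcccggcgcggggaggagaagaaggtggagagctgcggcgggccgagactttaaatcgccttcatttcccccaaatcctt
Col20a1 (chr2:180986285-180986534, plus strand): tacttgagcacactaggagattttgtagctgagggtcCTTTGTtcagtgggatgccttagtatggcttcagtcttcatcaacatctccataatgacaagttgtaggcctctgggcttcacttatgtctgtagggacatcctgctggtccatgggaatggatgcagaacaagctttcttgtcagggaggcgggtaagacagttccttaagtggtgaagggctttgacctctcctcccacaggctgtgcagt

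The Col27a1 window held 1 match, a GC box beginning 85 bases before that start, and had a GC content of 59.6%. The Col20a1 window held 1 match, ACAAAG on the reverse strand beginning 213 bases before that start, and had a GC content of 49.2%. A GC box was found in 59.4% of 32 member windows and in 32.7% of all 32851 windows. CCAAT was found in 37.5% of member windows and 33.8% of all, TATAAA in 12.5% and 12.4%, and ACAAAG in 6.25% and 16.5%. GACCACCCA was found in 0 member windows and in 0.225% of all windows. These matches describe letters in the windows and not binding.

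Several members are neighbours in the genome (GENCODE vM21, GRCm38). Col4a1 and Col4a2, the 2 chains of the most widespread type IV network, lie head to head on chromosome 8 with 22 overlapping bases at their starts. Col4a5 and Col4a6 lie head to head on the X chromosome, 1.3 kb apart, and Col3a1 and Col5a2 lie 24.6 kb apart on chromosome 1. Reads of overlapping genes cannot be told apart in an unstranded library. Member transcripts were long and rich in GC, with a median length of 5626.5 bases, against 3372 bases over all genes tested with an annotated length, and a median GC content of 56.5%, against 49.8%.

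Collagen RNA was a small part of every library. The 36 members summed to 366, 415 and 396 CPM in NKP 1 to 3, to 369, 298 and 307 CPM in AKP 1 to 3, and to 388, 387, 378 and 370 CPM in Ptch 1 to 4. The AKP 2 and AKP 3 sums lay below all others. The most abundant member per transcript length was Col9a3, a chain of the fibril-surface collagen IX, at a mean of 17.4 CPM per kb over the 10 libraries. It was followed by Col18a1, the type XVIII chain whose end is released as endostatin, at 9.69 CPM per kb, and Col1a2, a chain of type I collagen, at 5.73 CPM per kb. The lowest was Col4a4, a type IV chain best known from the kidney filter, at 0.0693 CPM per kb. Counts per library ran from 3 for Col14a1 to 1241 for Col18a1. Close to the limit for membership, Col14a1 and Col4a4 reached 10 counts in 6 libraries, while Col4a3, Col22a1 and Col28a1 did so in 2. Col28a1 had 18 and 38 counts in Ptch 1 and Ptch 2 and at most 7 in any other library.

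Chains that join in 1 protein were compared as ratios of their levels per kb. The level of Col1a2 per kb was 2.38 ± 0.404 times that of Col1a1 in NKP (SD, n = 3), 2.58 ± 0.378 times in AKP (SD, n = 3) and 2.20 ± 0.325 times in Ptch libraries (SD, n = 4). It exceeded Col1a1 in every library, with ratios from 1.78 to 2.85, whereas the type I protein usually holds more α1 than α2 chains. Col4a1 was at 1.25 ± 0.134 times Col4a2 per kb in NKP, 1.37 ± 0.193 times in AKP and 1.31 ± 0.274 times in Ptch libraries. Col9a3 was at 3.43 ± 0.478 times Col9a2 per kb in NKP, 2.80 ± 0.0744 times in AKP and 3.33 ± 0.185 times in Ptch libraries. Col6a1 was at 1.08 ± 0.115 times Col6a2 per kb in NKP, 1.43 ± 0.236 times in AKP and 1.40 ± 0.196 times in Ptch libraries. These ratios were not tested. Col6a1 over Col6a2 and Col4a1 over Col4a2 had their lowest means in NKP libraries. Col1a2 over Col1a1 had its lowest mean in Ptch and Col9a3 over Col9a2 in AKP libraries.

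**Figure D1:**
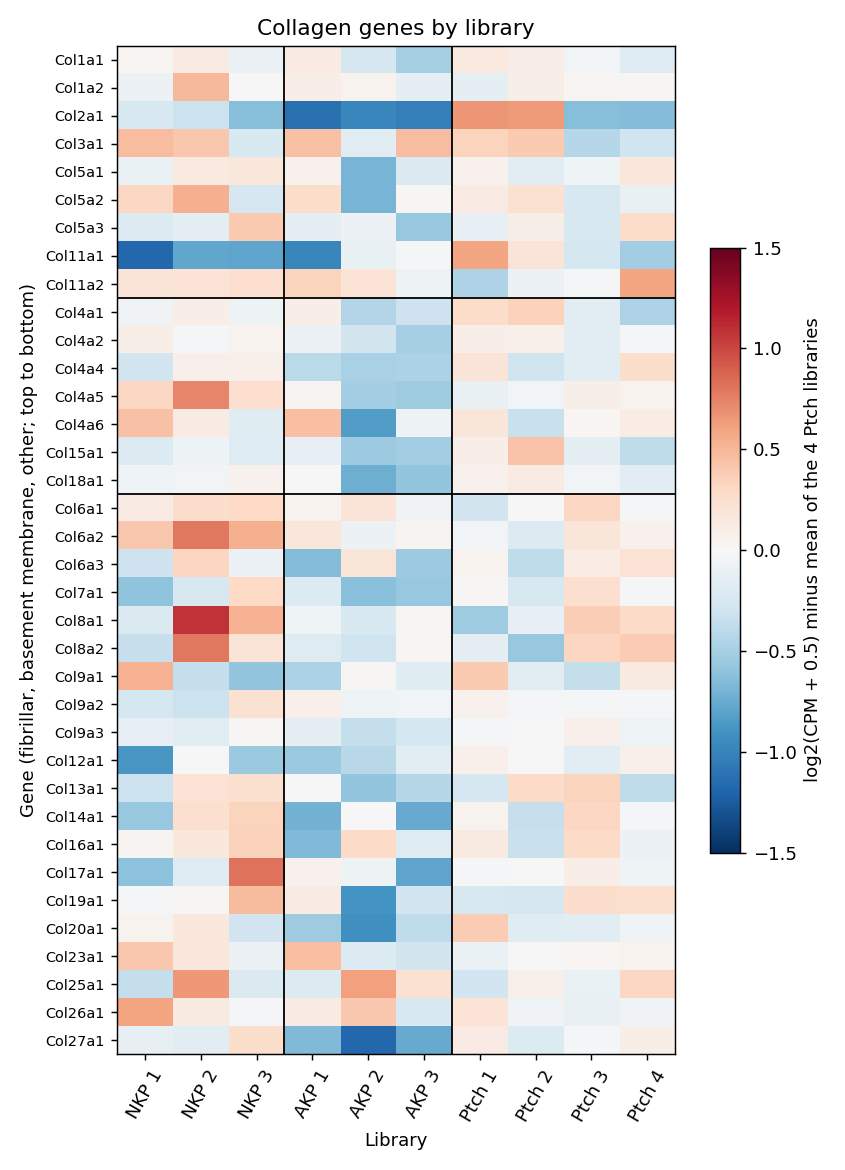
Level of each of the 36 collagen genes (rows) in each library (columns) as log2(CPM + 0.5) minus the mean of the 4 Ptch libraries, with red above and blue below that mean. The Col27a1 row is blue in all 3 AKP libraries, the Col2a1 row is red in Ptch 1 and Ptch 2, and the Col8a1 and Col8a2 rows are red in NKP 2.

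Between NKP and Ptch libraries no collagen gene passed the test, in a comparison where 0% of 15617 genes did (edgeR, adjusted p below 0.05 over all genes). At an unadjusted p below 0.05, 1 of 36 members was higher and 1 lower, where 6.79% and 10.2% of all genes were. DESeq2 called 1 member, Col6a2, and 2.71% of the 15310 genes to which it gave an adjusted p. The median log2 fold change was 0.08 for the 9 fibrillar, -0.02 for the 7 basement membrane and 0.10 for the 20 other genes, and 0.01 over all genes. Fitted fold changes were above 0 for 7, 3 and 13 members of these classes, and below 0 for 13 of 36 members and 47.7% of all genes. Summed fibrillar RNA was 92.1 ± 10.7 CPM in NKP (SD, n = 3) and 88.6 ± 6.83 CPM in Ptch libraries (SD, n = 4). Basement membrane genes summed to 106.5 ± 2.18 CPM in NKP and 106.3 ± 12.0 CPM in Ptch libraries, and the others to 194 ± 16.6 and 185.8 ± 11.1 CPM.

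Col6a2, a chain of the beaded-filament collagen VI, was at 11.4, 14.98 and 12.4 CPM in NKP 1 to 3, against 8.16, 7.28, 9.62 and 8.88 CPM in Ptch 1 to 4. Every NKP library lay above every Ptch library. Its log2 fold change was 0.61 (SE 0.158, edgeR adjusted p = 0.218), and DESeq2 gave 0.61 with an adjusted p of 0.0308. With age as a covariate edgeR gave 0.69 (adjusted p = 0.0418, with 5.97% of all genes called), and among libraries of 4 months 0.75 (adjusted p = 0.0205, with 15.6% called). Its partner Col6a1 was at 10.7, 11.9 and 12.1 CPM in NKP and 8.004, 9.71, 12.2 and 9.57 CPM in Ptch libraries, where the groups overlapped. Col4a5, an X-linked type IV chain, was at 4.50, 6.19 and 4.27 CPM in NKP 1 to 3 and 3.23, 3.41, 3.77 and 3.68 CPM in Ptch 1 to 4. These groups did not overlap either, and the log2 fold change was 0.50 (SE 0.234, adjusted p = 0.295), or 0.31 without NKP 2. Col4a5 and Col6a2 were the 2 members of 36 with every NKP library above every Ptch library, where 6.96% of all genes were.

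Col11a1, a minor fibrillar chain that sets fibril width in cartilage, was at 1.23, 1.77 and 1.75 CPM in NKP 1 to 3, against 5.39, 3.98, 2.75 and 2.22 CPM in Ptch 1 to 4. It was the only member of 36 with every NKP library below every Ptch library, where 8.95% of all genes were. Its log2 fold change was -1.15 (SE 0.368, adjusted p = 0.218), with -1.47 (adjusted p = 0.0298) with age as a covariate and -1.53 (adjusted p = 0.00505) among libraries of 4 months. Ptch 1 and Ptch 2, the Ptch libraries of that age, had the highest cycling sums and the highest Col11a1, and age cannot be told apart from these values. In AKP libraries, Col11a1 was at 1.48, 3.10 and 3.32 CPM, lowest in AKP 1, which also had the lowest cycling sum of that group.

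Type VIII collagen, made by vessel and meningeal cells among others, was highest in NKP 2. Col8a1 was at 3.93, 10.4 and 6.90 CPM in NKP 1 to 3, against 3.08, 4.24, 6.16 and 5.77 CPM in Ptch 1 to 4 (log2 fold change 0.56, SE 0.305, edgeR adjusted p = 0.358). NKP 2 and NKP 3 lay above the Ptch range and NKP 1 within it, and without NKP 2 the log2 fold change was 0.18. Col8a2 was at 9.40, 21.3 and 13.9 CPM in NKP and 10.9, 8.01, 15.2 and 15.9 CPM in Ptch libraries. NKP 2 held the highest value of both genes, and of 8 of 36 members in all, where it held the highest value of 14.9% of all genes. NKP 3 also held the highest value of 8 of 36 members, where it held that of 7.61% of all genes. Col12a1, a collagen of fibril surfaces, was at 3.60, 6.96 and 4.60 CPM in NKP and 7.39, 7.03, 6.16 and 7.42 CPM in Ptch libraries (log2 fold change -0.46, SE 0.227, adjusted p = 0.318). Its fold change was -0.76 without NKP 2 and -0.27 without NKP 1.

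Marker sums also differed between these libraries. The 12 meningeal fibroblast markers summed to 127.7 to 194 CPM in NKP, highest in NKP 2, and to 85.1 to 120 CPM in Ptch libraries. The 10 choroid plexus markers summed to 1753 to 4139 CPM in NKP, also highest in NKP 2, and to 1981 to 2894 CPM in Ptch libraries. The 10 mural cell markers summed to 254.6 to 327.8 CPM in NKP and 168.5 to 232.3 CPM in Ptch libraries, and the 10 endothelial markers to 227.7 to 274 CPM and 152 to 208 CPM. No marker of these 4 lists was at 0 in any library, and their part in the collagen values was not tested. In bulk tissue, fewer cells of a type and less RNA per cell cannot be told apart.

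**Figure D2:**
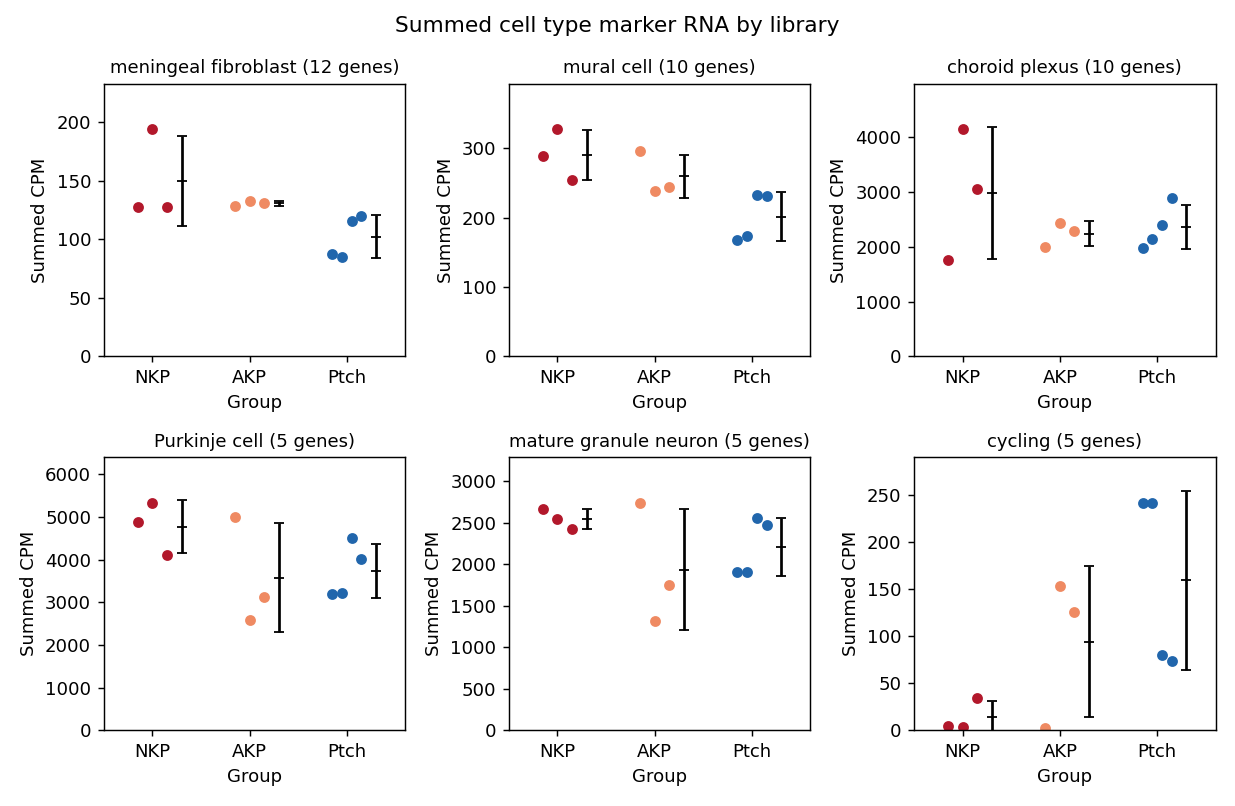
Summed CPM of 5 cell type marker lists and of 5 cycling genes in each library, with 1 point per library and the mean ± SD beside the points. Meningeal and choroid plexus sums are highest in NKP 2, at 194 and 4139 CPM, and Purkinje cell and mature granule neuron sums are lowest in AKP 2, at 2591 and 1317 CPM.

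Between AKP and Ptch libraries 1 of 36 collagen genes passed the test and fell, Col27a1, in a comparison where 5.68% of all genes passed, 3.38% higher and 2.30% lower, (edgeR, adjusted p below 0.05). Members lay mostly below 0. The fitted fold change was below 0 for 6 of 9 fibrillar, 7 of 7 basement membrane and 15 of 20 other genes, and for 52.3% of all genes. The median log2 fold changes of these classes were -0.20, -0.37 and -0.26, and -0.02 over all genes. Without AKP 1 the fibrillar median was -0.352 and the basement membrane median -0.617, and without AKP 2 the fibrillar median was -0.0752. When length and GC content of the transcripts were corrected for, the medians were 0.01, -0.17 and -0.08. That fit called 0.102% of all genes and put 22 of 36 members below 0, with a median of -0.0159 over all genes. The share of all genes below 0 in that fit was not counted. At an unadjusted p below 0.05, 0 members were higher and 6 lower, where 12.4% and 12.7% of all genes were.

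Summed fibrillar RNA was 82.4 ± 8.5 CPM in AKP (SD, n = 3) and 88.6 ± 6.83 CPM in Ptch libraries (SD, n = 4). Basement membrane genes summed to 105.9, 69.5 and 73.5 CPM in AKP 1 to 3, against 114, 118, 99.7 and 92.9 CPM in Ptch 1 to 4. AKP 1 lay within the Ptch range and AKP 2 and AKP 3 below it. Col18a1 alone made up 58.4, 35.1 and 38.8 CPM of these sums in AKP 1 to 3. The other collagen genes summed to 171, 151 and 157 CPM in AKP 1 to 3, against 182, 172, 198 and 190 CPM in Ptch 1 to 4. Here every AKP library lay below every Ptch library, with AKP 1 and Ptch 2 close together at 171 and 172 CPM. Col9a3 alone made up 51.1, 44.3 and 47.4 CPM of these sums in AKP 1 to 3.

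**Figure D3:**
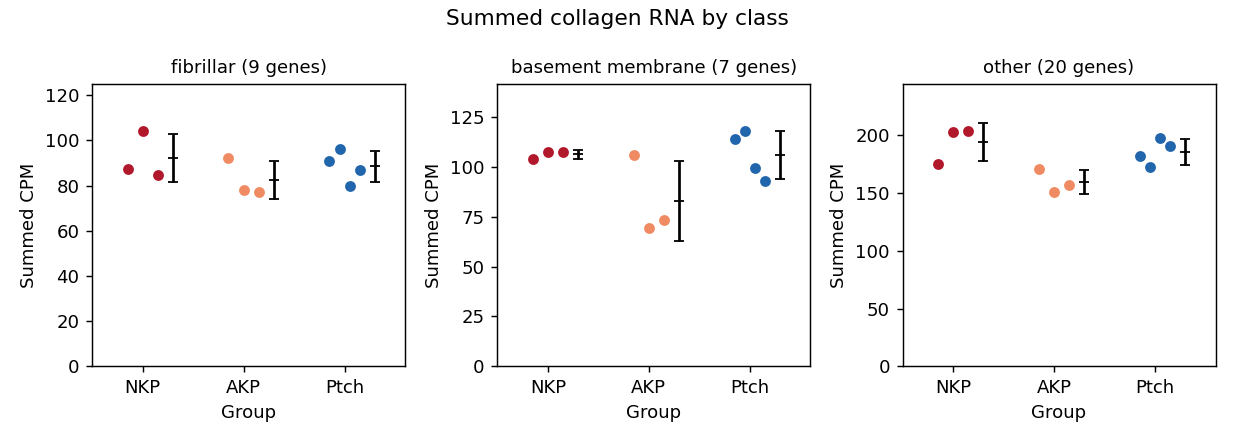
Summed CPM of the fibrillar, basement membrane and other collagen genes in each library, with 1 point per library and the mean ± SD beside the points. Fibrillar sums overlap in all groups, while the basement membrane sums of AKP 2 and AKP 3, at 69.5 and 73.5 CPM, lie below all others.

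Col27a1 (chromosome 4, 63214009 to 63334991, RefSeq GRCm38.p6) encodes the chain of type XXVII collagen, known from cartilage. It was at 6.90, 4.69 and 6.41 CPM in AKP 1 to 3, against 12.2, 9.66, 11.1 and 12.0 CPM in Ptch 1 to 4. Every AKP library lay below every Ptch library. The log2 fold change was -0.91 (SE 0.186, adjusted p = 0.0232), or 0.533 times the Ptch level. The call ended without AKP 2 (-0.76, adjusted p = 0.122), AKP 3 (-0.96, 0.0690), Ptch 1 (-0.86, 0.0700), Ptch 2 (-0.96, 0.0635) or Ptch 4 (-0.86, 0.0547). It also ended with the length and GC correction (-0.64, adjusted p = 0.0872). In that order, these fits called 0.00624%, 0, 0.00640%, 0.00645%, 1.18% and 0.102% of all genes, against 5.68% in the fit that gave the call. Without the 4 libraries that went against the stated sex the log2 fold change was -0.90 (adjusted p = 0.412), and among libraries of 2 months -1.0 (adjusted p = 0.287). Both of those fits called 0 genes in all.

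Col2a1, the chain of the cartilage collagen II, was at 1.97, 2.24 and 2.14 CPM in AKP 1 to 3, against 8.004, 7.85, 2.95 and 2.92 CPM in Ptch 1 to 4. The groups did not overlap, but the 2 Ptch libraries of 4 months were far above those of 2 months. Its log2 fold change was -1.35 (SE 0.385, adjusted p = 0.0571), with -0.48 among libraries of 2 months. It passed in DESeq2 (adjusted p = 0.0127), with no filter on low counts (0.0371) and without Ptch 3 (0.0473). These fits called 13.7%, 4.08% and 2.07% of the genes given an adjusted p. Col20a1, a collagen of the fibril-surface family, was at 7.32, 5.48 and 8.18 CPM in AKP 1 to 3, against 14.2, 9.51, 9.67 and 10.5 CPM in Ptch 1 to 4 (log2 fold change -0.65, SE 0.203, adjusted p = 0.0734), without overlap. DESeq2 gave an adjusted p of 0.0325. Col9a3 was at 51.1, 44.3 and 47.4 CPM in AKP and 56.0, 57.2, 59.8 and 54.4 CPM in Ptch libraries (-0.26, SE 0.0869, adjusted p = 0.0892), also without overlap. With Col4a4 these were the 5 members of 36 with every AKP library below every Ptch library, where 12.0% of all genes were, and 0 members had every AKP library above, where 12.9% had.

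Basement membrane genes divided the AKP libraries. Col18a1 was at 58.4, 35.1 and 38.8 CPM in AKP 1 to 3, against 61.3, 64.1, 57.2 and 52.7 CPM in Ptch 1 to 4. AKP 1 lay within the Ptch range. The log2 fold change was -0.42 (SE 0.148, adjusted p = 0.102), and without AKP 1 it was -0.67 and passed (adjusted p = 0.00686), where 9.08% of all genes were called. With length and GC content corrected for it was -0.22. Col4a2 was at 15.2, 13.4 and 11.4 CPM in AKP and 17.5, 17.1, 14.5 and 15.97 CPM in Ptch libraries (-0.29, SE 0.131, adjusted p = 0.190), and -0.05 after that correction. Col4a1 was at 23.0, 15.7 and 17.2 CPM in AKP and 26.0, 27.5, 19.2 and 15.4 CPM in Ptch libraries, with overlap. Col15a1, a collagen of vessel basement membranes, was at 2.96, 2.09 and 2.14 CPM in AKP and 3.54, 4.60, 2.90 and 2.41 CPM in Ptch libraries, again with AKP 2 and AKP 3 lowest.

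Type I and III collagen, the main fibril formers of connective tissue, did not separate the groups. Col1a1 was at 15.4, 16.4 and 14.1 CPM in NKP, 16.4, 12.5 and 10.5 CPM in AKP, and 16.6, 16.1, 14.6 and 13.1 CPM in Ptch libraries. Col1a2 was at 27.8, 41.6 and 29.4 CPM in NKP, 31.8, 30.7 and 26.9 CPM in AKP, and 26.6, 31.5, 30.2 and 30.1 CPM in Ptch libraries. The groups overlapped for both genes, and NKP 2 had the highest Col1a2. Col3a1 was at 12.5, 12.0 and 7.56 CPM in NKP, 12.3, 8.01 and 12.6 CPM in AKP, and 11.5, 11.9, 6.51 and 7.23 CPM in Ptch libraries. The type V chains Col5a1, Col5a2 and Col5a3, which start fibrils of type I collagen, averaged 7.53 ± 0.784, 4.71 ± 1.36 and 5.92 ± 1.52 CPM in NKP (SD, n = 3), 5.90 ± 1.65, 3.69 ± 1.33 and 4.73 ± 0.912 CPM in AKP (SD, n = 3), and 7.13 ± 0.788, 3.97 ± 0.655 and 5.79 ± 0.995 CPM in Ptch libraries (SD, n = 4). The type XI chain Col11a2 was at 9.65, 9.73 and 10.02 CPM in NKP, 10.7, 9.74 and 7.88 CPM in AKP, and 5.93, 7.80, 8.14 and 12.8 CPM in Ptch libraries, and every NKP and AKP value lay within the Ptch range. In each of these members edgeR gave an adjusted p above the threshold in every comparison.

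Among the remaining abundant or paired chains, groups overlapped, apart from Col4a4. Col9a2 was at 13.6, 13.0 and 19.2 CPM in NKP, 17.3, 15.7 and 15.99 CPM in AKP, and 17.2, 16.2, 16.1 and 16.2 CPM in Ptch libraries. Col23a1, a membrane-spanning collagen, was at 20.2, 17.1 and 14.2 CPM in NKP, 20.9, 13.1 and 12.4 CPM in AKP, and 14.2, 15.3, 15.52 and 15.8 CPM in Ptch libraries. It was highest in AKP 1 and NKP 1. Col6a3, the large chain of type VI collagen, was at 1.39, 2.43 and 1.697 CPM in NKP, 0.986, 2.16 and 1.11 CPM in AKP, and 1.92, 1.29, 2.04 and 2.22 CPM in Ptch libraries. Col4a6, which pairs with the Col4a5 chain, was at 2.13, 1.60 and 1.21 CPM in NKP, 2.14, 0.577 and 1.33 CPM in AKP, and 1.69, 1.03, 1.48 and 1.58 CPM in Ptch libraries. Col4a4 was at 0.572, 0.884 and 0.876 CPM in NKP, 0.493, 0.433 and 0.442 CPM in AKP, and 1.0, 0.568, 0.662 and 1.08 CPM in Ptch libraries, where AKP lay below the other groups without a call.

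Several marker sums, not only neuronal ones, were lower in AKP 2 and AKP 3, where collagens were lowest, than in AKP 1. The 5 Purkinje cell markers summed to 5010, 2591 and 3133 CPM in AKP 1 to 3 and to 3196 to 4499 CPM in Ptch libraries. The 5 mature granule neuron markers summed to 2740, 1317 and 1751 CPM in AKP 1 to 3 and to 1902 to 2552 CPM in Ptch libraries. Mural cell markers summed to 295.9, 238 and 244.5 CPM in AKP 1 to 3, all above the Ptch libraries. Endothelial markers summed to 265, 225.4 and 221.8 CPM in AKP 1 to 3 and 152 to 208 CPM in Ptch libraries. For the 7 oligodendrocyte lineage markers the sums were 8424, 6621 and 6643 CPM against 4468 to 5716 CPM, again without overlap. The 7 astrocyte and Bergmann glia markers summed to 2551, 2076 and 2103 CPM in AKP 1 to 3 and 2179 to 2291 CPM in Ptch libraries. Meningeal fibroblast markers went the other way, at 128, 132.9 and 130.6 CPM in AKP 1 to 3, all above the Ptch libraries. So did choroid plexus markers, at 1996, 2426 and 2292 CPM. AKP 2 held the lowest value of 12 of 36 members and AKP 3 of 8, where they held the lowest value of 18.3% and 8.06% of all genes. The part of these cell types in the collagen values was not tested.

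**Figure D4:**
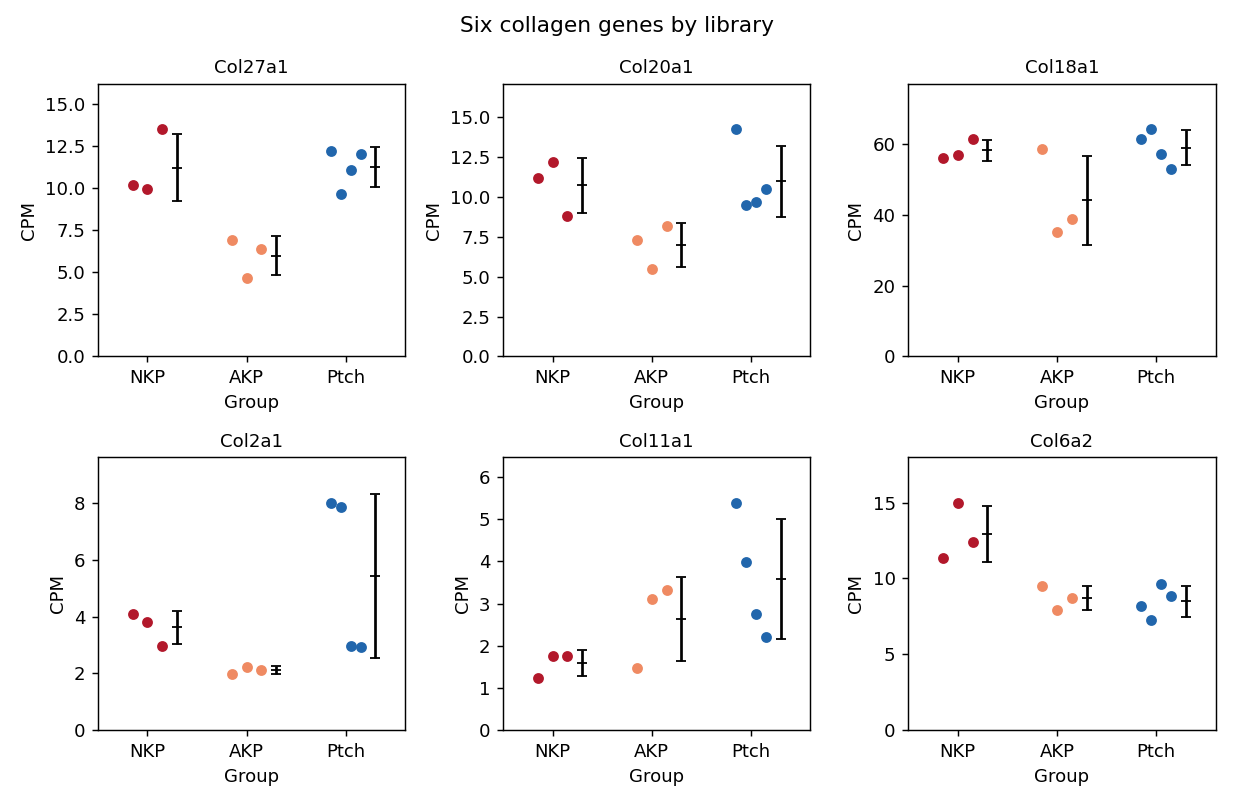
CPM of 6 collagen genes in each library, with 1 point per library and the mean ± SD beside the points. Col27a1 and Col20a1 are lowest in the 3 AKP libraries, Col2a1 is highest in 2 Ptch libraries at 8.004 and 7.85 CPM, and Col6a2 is highest in the 3 NKP libraries.

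Between AKP and NKP libraries 0 of 36 collagen genes passed the test, in a comparison where 0.00640% of all genes did (edgeR). DESeq2 called 0 members and 2.17% of the 8048 genes to which it gave an adjusted p. It gave none to Col27a1, Col20a1, Col4a2, Col4a5 and Col6a2, which it therefore could not call. At an unadjusted p below 0.05, 0 members were higher and 6 lower, where 8.82% and 8.04% of all genes were. The median log2 fold change was -0.22 for fibrillar, -0.33 for basement membrane and -0.38 for other genes, and -0.01 over all genes, with 31 of 36 members and 51.5% of all genes below 0. Both comparisons of AKP libraries use the same AKP libraries, so their values are not independent.

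Col27a1 was at 10.2, 9.95 and 13.5 CPM in NKP 1 to 3, all above the AKP libraries (log2 fold change -0.91, SE 0.197, adjusted p = 0.228). Col4a5 was at 3.62, 2.31 and 2.29 CPM in AKP 1 to 3, against 4.50, 6.19 and 4.27 CPM in NKP 1 to 3 (-0.87, SE 0.259, adjusted p = 0.228). Col6a2 was at 9.54, 7.94 and 8.70 CPM in AKP and 11.4, 14.98 and 12.4 CPM in NKP libraries (-0.57, SE 0.171, adjusted p = 0.228). Col20a1 had -0.62 (SE 0.215, adjusted p = 0.228), Col18a1 -0.40 (SE 0.158, adjusted p = 0.252) and Col4a2 -0.33 (SE 0.139, adjusted p = 0.271). Without AKP 1, Col27a1 (-1.02, adjusted p = 0.0172), Col4a5 (-1.12, 0.0267) and Col18a1 (-0.66, 0.00777) passed, where 8.49% of all genes did. Among libraries of 4 months AKP 3 is the only AKP library, and its spread is assumed to be that of the other groups. Col18a1 then had -0.59 (adjusted p = 0.0465), in a fit that called 2.54% of all genes. In all, 7 of 36 members had every AKP library below every NKP library, where 9.52% of all genes had, and 0 members had every AKP library above, where 6.69% had.

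**Figure D5:**
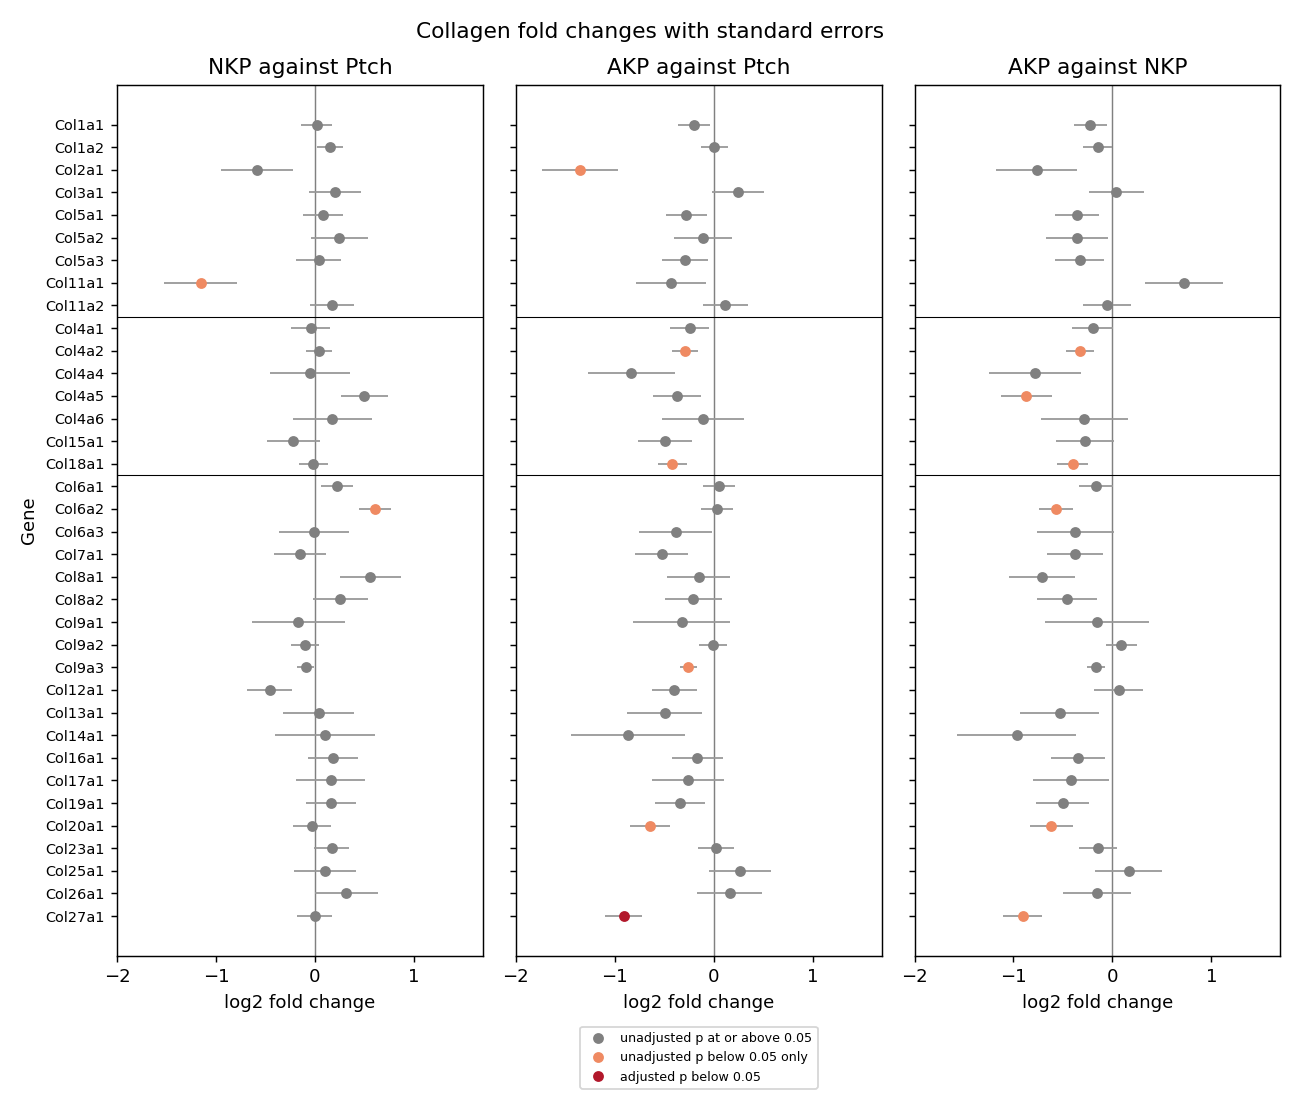
Log2 fold change of each collagen gene (points) with its standard error (lines) in the 3 comparisons, coloured by whether the adjusted or only the unadjusted p was below 0.05. One point passes the adjusted threshold, Col27a1 in AKP against Ptch at -0.91, and 31 of 36 points lie below 0 in AKP against NKP.

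Age labels also divided the Ptch libraries. Of the 36 members, 10 were higher in both Ptch libraries of 4 months than in both of 2 months, Col2a1, Col11a1, Col3a1 and Col4a1 among them, and 8 were lower, Col6a2, Col8a1 and Col8a2 among them. These were 27.8% and 22.2% of the members, against 33.6% and 29.0% of all genes. Age and the cycling sum divide these 4 libraries in the same way and cannot be told apart.

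Genes that make, process and bind collagen were read beside the chains. Of 21 genes for the modification and folding of procollagen, 1 rose in AKP against Ptch libraries and 0 fell, where 3.38% and 2.30% of all genes did. It was Serpinh1, which encodes the collagen chaperone HSP47, at 68.1, 85.4 and 87.2 CPM in AKP 1 to 3, against 59.6, 60.7, 42.9 and 47.3 CPM in Ptch 1 to 4 (log2 fold change 0.61, SE 0.151, edgeR adjusted p = 0.0397). All AKP libraries lay above all Ptch libraries. The call ended without AKP 2 (adjusted p = 0.154), AKP 3 (0.125), Ptch 1 (0.0717), Ptch 2 (0.0635), Ptch 3 (0.0741), Ptch 4 (0.0802) or NKP 2 (0.0532). Of 16 basement membrane partners, laminins and nidogens among them, 1 rose and 0 fell, against the same shares of all genes. It was Sparc, a protein that binds collagens I and IV, at 1160, 1360 and 1260 CPM in AKP, against 985, 927, 1000 and 943 CPM in Ptch libraries (0.39, SE 0.101, adjusted p = 0.0441). That call ended without AKP 2 (adjusted p = 0.168), AKP 3 (0.117), Ptch 1 (0.0992), Ptch 2 (0.100), Ptch 3 (0.0737), Ptch 4 (0.0882) or NKP 2 (0.0581). In that order, these fits called 0.00624%, 0, 0.00640%, 0.00645%, 2.07%, 1.18% and 3.48% of all genes, against 5.68% with all libraries. Over all 22 alternatives, 10 kept the Serpinh1 call and 9 the Sparc call, and the sign was the same in each.

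None of the other partner lists held a call in AKP against Ptch libraries by edgeR. Of 13 genes tested for cleavage and crosslinking, 0 were higher and 2 lower at an unadjusted p below 0.05, where 12.4% and 12.7% of all genes were. Of 11 for degradation, 3 were higher and 1 lower, of 8 collagen receptors 0 and 0, and of 11 fibril-binding proteins 0 and 0. In NKP against Ptch libraries and in AKP against NKP libraries no gene of the 6 lists passed. At an unadjusted p below 0.05 in NKP against Ptch libraries, 6.79% of all genes were higher and 10.2% lower. Of 11 fibril-binding proteins 7 were higher and 0 lower, and of 8 collagen receptors 0 and 3. Cleavage and crosslinking had 2 and 2 of 13, and degradation 2 and 0 of 11. Modification and folding had 1 and 1 of 21, and basement membrane partners 3 and 1 of 16. Lum and Ogn, which also stand in the meningeal list, were among the 7 fibril-binding proteins. For Lum, Ogn, Fmod, Omd, Fn1 and Thbs2 the groups overlapped. Bgn, the proteoglycan biglycan, was at 20.6, 29.0 and 20.5 CPM in NKP 1 to 3, against 17.8, 16.4, 16.5 and 18.6 CPM in Ptch 1 to 4, without overlap. NKP 2, the library with the highest meningeal sum, was highest. Pxdn encodes peroxidasin, which crosslinks collagen IV, and like Bgn was chosen after its values were seen. It was at 3.93, 4.81 and 4.54 CPM in NKP, against 11.7, 14.3, 6.06 and 5.90 CPM in Ptch libraries, with the Ptch libraries of 4 months highest.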

How the data were processed

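Poly-A RNA of 10 mouse libraries was prepared with an unstranded TruSeq kit, per the labels' protocols. Trim Galore, STAR, RSEM and the GRCm38 build appear in the submitters' processing notes. Tool versions and annotation: not given in the sources used here. Whole numbers per gene symbol fill the deposited table, and these were treated as RSEM expected counts in rounded form, so rounding changed no value.

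Genes were kept by filterByExpr (15617, all 36 members among them), scaled by TMM and tested in 1 fit of all libraries with edgeR 4.0.16 in R 4.3.3 (quasi-likelihood F test, Benjamini-Hochberg adjustment over all genes, threshold 0.05). Each SE is the log2 fold change divided by the square root of F, without its sign. Values in full were given for members past the threshold, the 5 smallest p of each comparison, the 4 highest members of each class, the chains of types I, III, IV, V, VI, XV and XVIII, and partner genes past the threshold. Bgn, Pxdn and the members near the count limit were added after their values were seen. Length and GC content came from the longest GENCODE vM21 transcript. DESeq2 1.42.0, other scalings and filters, covariates, single ages, a length and GC correction (lowess span 0.3) and left-out libraries were alternatives. Members, lists and alternatives were chosen with earlier results of these data known. The fit was tested on simulated data. The labels do not tie libraries to individual animals, and p-values then describe only library-to-library spread, which may be technical. The most similar libraries, Ptch 3 and Ptch 4, still differed beyond sampling noise (chi-square over degrees of freedom 3.30). Of the next closest pairs, NKP 1 with AKP 1 (3.53) and NKP 3 with Ptch 4 (3.84) crossed the labelled groups. Whether labels were exchanged was not tested.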

Additional observations from a re-analysis of the deposited data

Results flagged for a closer look

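Among the 4 Ptch libraries, the gap between an extreme library and its neighbour was large against the whole range for 2 of 40 values checked, the 36 members and 4 class sums, about as many as chance gives at 1 in 20 groups. Col9a2, a chain of collagen IX, had a gap of 0.961 of the range, with Ptch 1 at 17.2 CPM and Ptch 2 to 4 at 16.2, 16.1 and 16.2 CPM. Col26a1 had a gap of 0.839 of the range, with Ptch 1 at 1.77 CPM and the others at 1.39, 1.32 and 1.39 CPM.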

How the results depend on the processing

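Each result had 22 alternatives, except that DESeq2 gave no adjusted p for Col27a1, Col20a1, Col4a2, Col4a5 and Col6a2 in AKP against NKP, which had 21. No class median moved by more than the spread between libraries in NKP against Ptch, and no named fold change reversed its sign in any comparison. Collagen genes past the threshold numbered 0 in NKP against Ptch, but 1 by DESeq2, 2 with age as a covariate and 3 among libraries of 4 months, and 0 with each library left out. In AKP against Ptch they numbered 1, but 3 by DESeq2 and 2 with no filter on low counts. They numbered 0 among libraries of 2 months, after the length and GC correction and when libraries against the stated sex were left out. With 1 library left out they numbered from 0 to 2. The share of all genes called was 5.68% in the edgeR fit of all libraries and 0.102% after that correction. It was 0 among libraries of 2 months and without the libraries against the stated sex. With 1 library left out this share ran from 0 to 9.08%. In AKP against NKP they numbered 0, but 1 among libraries of 4 months (Col18a1), where AKP 3 is assumed to vary like the others, and from 0 to 3 with 1 library left out, with 3 without AKP 1. Of all genes, fits with 1 library left out called 0 in NKP against Ptch and from 0 to 8.49% in AKP against NKP. The length and GC correction gave medians of 0.011 for fibrillar and -0.0761 for other genes in AKP against Ptch. In AKP against NKP it gave -0.088 for fibrillar, -0.176 for basement membrane and -0.194 for other genes. With each library left out, the AKP against NKP medians ran from -0.398 to -0.081 for fibrillar, from -0.655 to -0.259 for basement membrane and from -0.552 to -0.267 for other genes, the lowest without AKP 1, AKP 1 and NKP 1. The AKP against Ptch medians ran from -0.352 to -0.0752 for fibrillar, from -0.617 to -0.254 for basement membrane and from -0.31 to -0.217 for other genes. The causes were not tested. The replicate block left 0 collagen genes and 0 genes in all in AKP against Ptch, against 1 and 887 without it. Correlations between the deviations of same-numbered libraries were mixed, from -0.335 to 0.341. Of 6 libraries, 0 in NKP against Ptch, 2 in AKP against Ptch and 2 in AKP against NKP correlated best with their own number. Low counts limit Col14a1, Col4a4, Col4a6 and Col9a1, with fewer than 10 counts in some libraries.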
